A study of Mus musculus with 4 samples.

Results

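Among the cells of dissected E10.5 mouse hearts was a small population of epithelial cells carrying mRNA for Pax8, Foxe1 or both, which are factors of the thyroid primordium. They were selected here by 4 genes. A cell had at least 1 UMI of Epcam, an adhesion protein of epithelia, at least 2 UMIs of Pax8 and Foxe1 together, and Tnnt2, the cardiac troponin T, under 5 UMIs per 10000. Of 28025 cells within the limits on depth, 340 met the rule, or 1.21%. Cells with at least 2 Epcam UMIs, no UMI of Pax8 or Foxe1 and the same limit on Tnnt2 served for comparison, and there were 535 of them. A UMI, or unique molecular identifier, tags 1 captured mRNA molecule, so all values are counts of molecules.

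The thyroid begins as a thickening of the floor of the pharynx, next to the aortic sac, and its cells then bud off and descend in front of the outflow tract. The primordium is defined by the joint presence of the transcription factors NKX2-1, PAX8, FOXE1 and HHEX, each of which is also made elsewhere: NKX2-1 in lung and forebrain, PAX8 in ear and kidney, FOXE1 in the oral and pharyngeal lining, and HHEX in liver and endothelium. The genes of hormone synthesis are mostly switched on only after descent.

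Hearts came from C57BL/6J embryos at E10.5, either wild type (Wt) or homozygous for the Cyp51 I383V point mutation (Ho), which lies in the lanosterol demethylase of cholesterol synthesis and was introduced by CRISPR/Cas9, with no Cre or transgene named. The labels give CRISPR/Cas9 as the treatment of all 4 libraries, Wt included. There were 2 libraries for each genotype (Wt1, Wt2, Ho1 and Ho2), and nothing in the sources says whether a library is 1 embryo, a pool or a litter, so p-values measure only the spread between these libraries. Total UMIs deposited were 109893733 and 117034633 for Wt1 and Wt2 and 127018819 and 107377100 for Ho1 and Ho2, and the cells kept had a median of 12066, 15505, 16898 and 16719 UMIs.

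The libraries held these cells very unequally. Wt1 had 125 of 8283 cells (1.51%, exact 95% interval 1.26% to 1.80%), Wt2 had 153 of 6840 (2.24%, 1.90% to 2.62%) and Ho2 had 62 of 5969 (1.04%, 0.797% to 1.33%). Ho1 had none among 6933 cells. A count of 3 there would be a share of 0.0433%, which is used here as the limit that a count of 0 allows, and the exact interval of Ho1 reached 0.0532%. Intervals and limits of this kind cover counting error only. Both Ho libraries lay below both Wt libraries, by 1.35 percentage points on average (Wt 1.87% ± 0.515, Ho 0.519% ± 0.734, SD, n = 2 each), and the exact two-sided permutation test gave p = 0.33, the smallest that 2 against 2 libraries allow. Epithelium of any kind varied too. Cells with an Epcam UMI made up 9.20% and 4.12% of the Wt libraries and 0.534% and 6.38% of the Ho libraries. Among such cells the Pax8/Foxe1 cells were 16.4% in Wt1, 54.3% in Wt2 and 16.3% in Ho2, and 0 of 37 in Ho1 (up to 8.11% by the count of 3, 9.49% by the exact interval). A smaller number of these cells in the embryo and a smaller amount of pharyngeal tissue in the dissection cannot be told apart. Of the 340 cells, 7 were called doublets, and 3 had a barcode sequence that also occurred in another library.

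**Figure D1:**
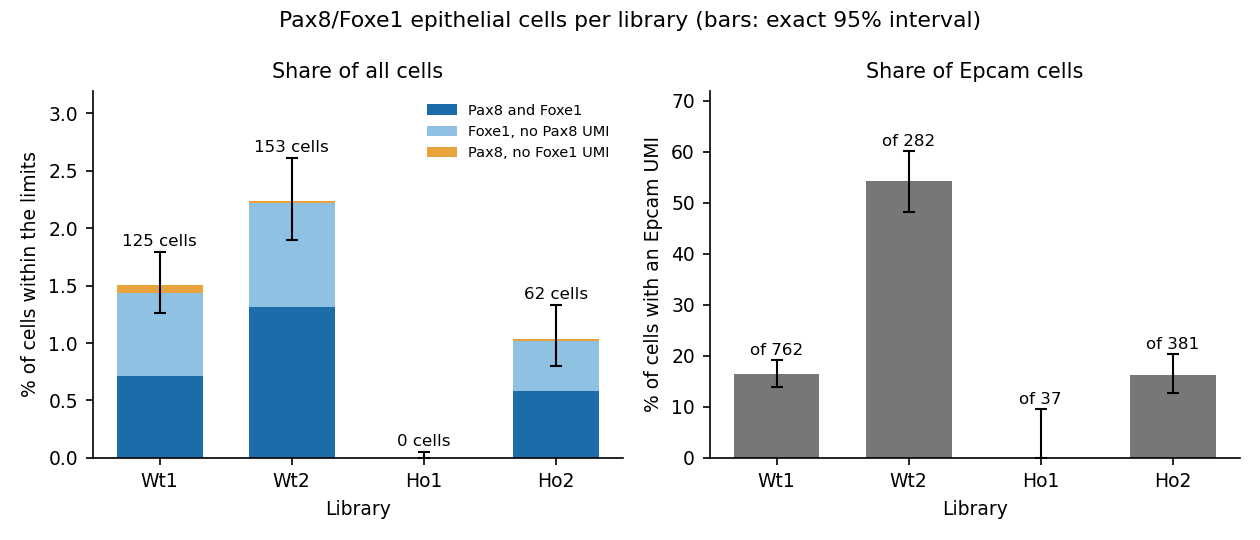
Left, Pax8/Foxe1 epithelial cells as a percentage of all cells within the limits in each library, stacked by which factor had a UMI, with the number of cells above each bar. Right, the same cells as a percentage of cells with an Epcam UMI, with the number of such cells; error bars are exact 95% intervals. Ho1 holds none, and Wt2 has the largest share on both scales, 2.24% and 54.3%.

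The label was first checked on the factors that the rule did not use. Nkx2-1 had a UMI in 161 of the 340 cells (47.4%) and Hhex in 166 (48.8%). In cardiomyocytes (cells with Tnnt2 at or above the limit, n = 10552, median depth 18100.5 UMIs against 8806.5 in the Pax8/Foxe1 cells), which should lack them, the shares were 0.218% and 2.78%. By library, Nkx2-1 was present in 40.0%, 47.7% and 61.3% of the selected cells of Wt1, Wt2 and Ho2. In the compared Epcam cells it was present in 3.87%, 3.57% and 68.0%, so in Ho2 it was no more frequent in the selected cells. Hhex in Ho2 was present in 43.5% against 10.3%. The average over the 340 cells hid 2 unlike groups of cells. A UMI of both Pax8 and Foxe1 was present in 184 cells (59 of Wt1, 90 of Wt2 and 35 of Ho2), Foxe1 without Pax8 in 148 (60, 62 and 26) and Pax8 without Foxe1 in 8 (6, 1 and 1).

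Nkx2-1 was detected in 72.3% of the double-positive cells (95% interval 65.2% to 78.6%) and in 16.9% of the Foxe1-only cells (11.2% to 23.9%). For Hhex the shares were 76.6% and 15.5%. With every cell thinned to 2000 UMIs, Nkx2-1 was present in 33.2% and 5.41% and Hhex in 34.8% and 8.78%, against 0.0190% and 0.398% in thinned cardiomyocytes. The median depth before thinning was 7080 UMIs in double-positive cells and 11094.5 in Foxe1-only cells. The markers of the thyroid primordium therefore held for the double-positive cells and were missing from most Foxe1-only cells, and the 340 cells are called Pax8/Foxe1 epithelial cells in what follows.

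**Figure D2:**
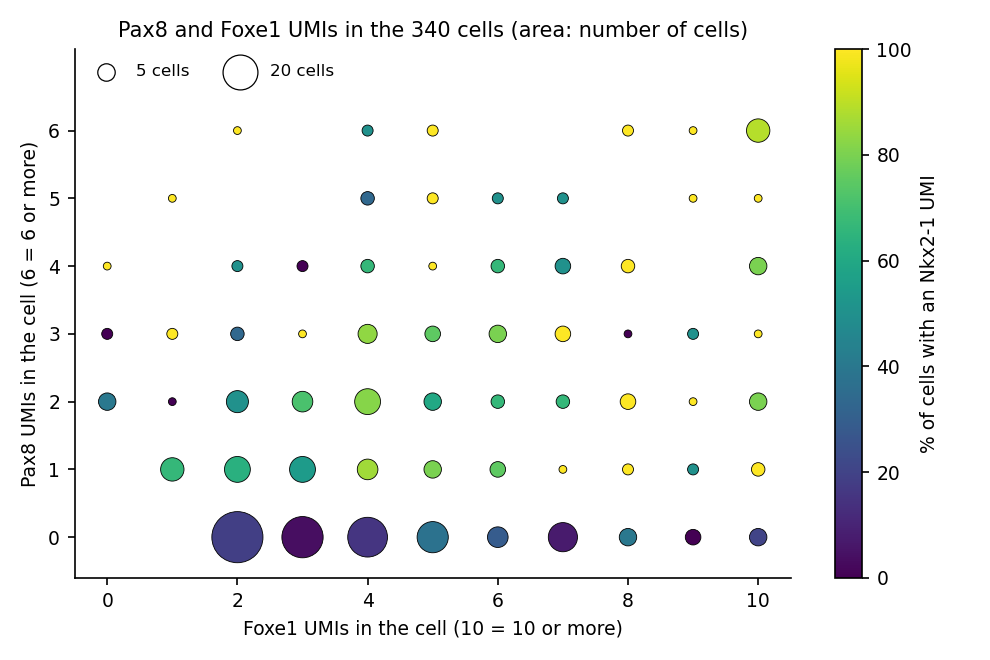
Each circle is one combination of Foxe1 UMIs (horizontal) and Pax8 UMIs (vertical) among the 340 cells, with area proportional to the number of cells and colour giving the percentage of them with an Nkx2-1 UMI. In the bottom row, the 148 cells without a Pax8 UMI, Nkx2-1 is found in few cells at most levels of Foxe1, against 72.3% of the cells with both factors.

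At the edge of the rule, 57 cells had exactly 2 UMIs of Pax8 and Foxe1 together and 95 Epcam cells just outside had exactly 1. Nkx2-1 was detected in 28.1% of the former and 20% of the latter, and in 51.2% of the 283 cells above the edge. By library the shares at the edge and just outside were 25.7% and 6.56% in Wt1, 28.6% and 40.0% in Wt2 and 37.5% and 47.4% in Ho2, so the order of the pooled shares was that of Wt1, which held 61 of the 95 cells outside. Only 3 cells met the Pax8 and Foxe1 limit without an Epcam UMI, and leaving out the limit on Tnnt2 would have given 354 cells in place of 340.

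The cells compared were a mixture and differed between libraries. The Wt libraries had 310 and 28 of them and the Ho libraries 3 and 194. Nkx2-1 was present in 68.0% of them in Ho2, together with Shh in 73.2% and Irx1 in 67.5%, against 3.87%, 7.10% and 24.8% in Wt1. In Wt1, Pax9, a gene of the pharyngeal pouches, was present in 40.0%, and in Ho2 in 2.58%. The 28 cells of Wt2 had a median of 2 Epcam UMIs and an Epcam level of 225 CPM (counts per 1000000 UMIs), against 837 in Wt1 and 867 in Ho2, and a list of 14 mesenchyme genes summed to 1211 CPM there, against 452 and 326. The main counts, and the results below that name it, are given without Wt2 as well.

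UMIs were summed per library over the Pax8/Foxe1 cells and over the compared cells of Wt1, Wt2 and Ho2, and edgeR's quasi-likelihood test with the library as a block was run on 9242 genes, with Benjamini-Hochberg adjustment at 0.05. The test called 446 genes higher in the Pax8/Foxe1 cells, which is 4.83% of those tested, and 478 lower, or 5.17%. Without Wt2 it called 472 and 591, and without Ho2 it called 241 and 259. Of 47 genes followed without Wt2, 46 kept their direction and their side of the threshold and Twist1 lost its call (adjusted p = 0.077), and the log2 fold change was 7.32 for Prlr, 4.38 for Hhex, 5.02 for Tshr and -2.74 for Col1a2. Gene values below are normalized CPM (TMM) of the summed cells in the order Wt1, Wt2 and Ho2, and Epcam, Pax8, Foxe1 and Tnnt2, having chosen the cells, were not tested. Sums over a list are CPM of all UMIs, without the TMM factors. Those factors were 1.03, 1.10 and 1.02 for the Pax8/Foxe1 cells and 0.946, 1.00 and 0.918 for the compared cells. Over all genes tested, the values of the 3 libraries did not overlap between the sets in 15.8% (Pax8/Foxe1 cells above) and 12.8% (below).

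Of the 20 listed thyroid developmental factors besides Pax8 and Foxe1, 14 could be tested, and 5 were higher (Hhex, Bcl2, Isl1, Nkx2-3 and Fgfr2) and 2 lower (Nkx2-6 and Gata6). Of all genes tested 4.83% were higher and 5.17% lower. The median log2 fold change of the 14 was 0.44, against 0.02 over all genes tested. The list shares Nkx2-3, Nkx2-6, Shh and Foxa2, among others, with the list of pharyngeal and foregut endoderm. Hhex (chr19:37434810-37440731, GRCm38), a homeobox factor needed to keep the thyroid bud, was at 118, 136 and 101 CPM in the Pax8/Foxe1 cells and at 1.04, 22.5 and 10.8 CPM in the compared cells. The groups did not overlap, and the log2 fold change was 4.04 (SE 0.52, adjusted p = 0.00347 by edgeR). Bcl2, the survival factor that thyroid progenitors require, was at 132, 150 and 168 CPM against 9.37, 37.5 and 9.48 CPM, a log2 fold change of 3.54 (SE 0.33, adjusted p = 0.000839 by edgeR). Nkx2-3, a pharyngeal endoderm homeobox gene, was 2.87 higher on the log2 scale (SE 0.73, adjusted p = 0.0405 by edgeR), but its call was lost when doublets were left out (adjusted p = 0.0517).

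Nkx2-1 (chr12:56531958-56536908) itself did not pass the test. It was at 66.2, 86.7 and 139 CPM in the Pax8/Foxe1 cells and at 4.16, 2.5 and 112 CPM in the compared cells, with a log2 fold change of 1.92 (SE 0.61, adjusted p = 0.0838 by edgeR). Within both Wt libraries the groups lay far apart, while in Ho2, whose compared cells held Nkx2-1 with Shh and Irx1, the values were close. Without Ho2 the log2 fold change was 4.12 (adjusted p = 0.000442 by edgeR), and with the double-positive cells alone it was 2.87 (adjusted p = 0.00717).

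Of 17 listed genes of thyroid hormone synthesis, 3 passed the filter on low counts, which such genes passed through the Pax8/Foxe1 cells, where they were high. Without the filter 4 of 13 were called higher and none lower. Tshr, the thyrotropin receptor, was at 12.8, 18.5 and 20.6 CPM against 0.260, 2.5 and 0.677 CPM (log2 fold change 4.65, SE 0.59, adjusted p = 0.00323 by edgeR). The lowest Pax8/Foxe1 library stood above the highest compared library. Duoxa2, the maturation factor of the dual oxidase that supplies hydrogen peroxide for hormone synthesis, was at 27.1, 29.3 and 13.3 CPM against 0, 7.5 and 0 CPM (adjusted p = 0.0096 by edgeR, 0.0798 by DESeq2). The pooled counts were 94 and 3 UMIs, a ratio of 67.8 (counting interval 22.5 to 335), but all 3 UMIs of the compared cells were in Wt2. Without Wt2 they were 45 and 0. Duoxa2 overlaps Duoxa1 in the annotation, so reads of the pair may be split uncertainly.

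Other genes of hormone synthesis were at or near 0. Slc5a5, the iodide transporter, had a UMI in 1 of the 340 cells. Tg, thyroglobulin, had a UMI in 7.07% of double-positive cells and in 7.44% of cardiomyocytes, which were the deeper cells. After thinning the shares were 2.72% (interval 0.888% to 6.23%) and 0.787%, with 5 double-positive cells behind the first. Of the other Epcam cells 0.374% had a Tg UMI before thinning. Slc26a4, Duox1, Dio2 and Tff3 had no UMI in the 340 cells, which allows cells with a UMI to be up to 0.882% for each.

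Most of the largest differences lay outside the listed thyroid genes. Prlr, the prolactin receptor (chr15:10177238-10349180), was at 67.0, 82.5 and 96.9 CPM in the Pax8/Foxe1 cells and at 0.260, 5.00 and 0.677 CPM in the compared cells, a log2 fold change of 6.66 (SE 0.43, adjusted p = 0.000277 by edgeR). Slc16a11, a monocarboxylate transporter, was at 87.7, 119 and 63.0 CPM against 0, 2.5 and 2.37 CPM (log2 fold change 6.03, SE 0.52). Gcgr, the glucagon receptor, was at 35.1, 48.4 and 35.1 CPM against 0.260, 0 and 1.02 CPM (log2 fold change 5.86, SE 0.46). These 3 genes thus encode membrane receptors and carriers, and each had at most 8 UMIs in all compared cells together.

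Cpne4, a calcium-dependent membrane-binding copine, was higher by 5.45 on the log2 scale, with 12 UMIs in the compared cells, all in Wt1. Hivep3, a zinc finger factor, was higher by 5.15, and Iigp1, an interferon-inducible GTPase, by 4.70. Others had at most 4 UMIs in all compared cells, so their fold rests on few molecules: the calmodulin-like Calml3 (51 UMIs against 1), the helix-loop-helix factor Nhlh2 (33 against 1), the BMP antagonist Grem1 (57 against 2), neuropeptide Y (Npy, 63 against 2), Elmod1 (46 against 2), the potassium channel Kcnh3 and Scnn1b, a subunit of the epithelial sodium channel (43 against 2). Gm12446, an antisense transcript that overlaps Foxe1, was higher too, but its reads share a locus with a gene of the rule. The genes of this group were chosen as called and higher in all 3 libraries, so that agreement is no further result. Genes with few UMIs in the compared cells, Prlr, Slc16a11 and Gcgr among them, passed the filter on low counts through the Pax8/Foxe1 cells, where they were high. All were also taken for their large fold change. Their adjusted p lay between 0.000277 and 0.00999 by edgeR and is for both reasons no further support.

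Of the 14 mesenchyme genes, 10 were tested and 8 were lower, where 5.17% of all genes were. Their median log2 fold change was -2.55 and none was higher. Some, such as Tcf21 and Foxf1, passed the filter on low counts through the compared cells, where they were high. Col1a2, a chain of type I collagen, was at 10.4, 8.97 and 2.42 CPM against 67.2, 165 and 18.6 CPM (log2 fold change -3.44, SE 0.33, adjusted p = 0.00108 by edgeR). In each library the Pax8/Foxe1 cells were the lower, and the whole list summed to 204, 219 and 121 CPM in them against 452, 1211 and 326 CPM, with Cthrc1 the most abundant member in the former and no member at 0. With compared cells of at least 5 Epcam UMIs, which leaves Wt2 out, 1 of 7 tested mesenchyme genes was lower and the median was -0.82. Tcf21, a factor of epicardium and lung mesenchyme (log2 fold change -3.93), and Jag1, a Notch ligand (-4.10), lost their call with those cells (adjusted p = 0.0707 and 0.0813 by edgeR). Mef2c, Foxf1, Hand1, Col1a1, Kitl and Gm34030 had log2 fold changes between -3.65 and -2.96, and those of Hand1 and Col1a1 overlapped between the sets because the Pax8/Foxe1 cells of Wt2 were above the compared cells of Ho2. Without Wt2, 8 of 12 tested mesenchyme genes were lower (median -2.54).

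Irx1, an Iroquois homeobox gene of the foregut and lung, was at 4.79, 3.59 and 3.63 CPM in the Pax8/Foxe1 cells and at 33.1, 9.99 and 146 CPM in the compared cells, a log2 fold change of -3.52 (SE 0.49, adjusted p = 0.00437 by edgeR). Irx2, Irx3 and Irx5 had log2 fold changes of -2.37, -2.30 and -2.66. These 4 Iroquois genes were lower within each library, though the calls of Irx2 and Irx3 were lost without Ho2 (adjusted p = 0.0708 and 0.12). Of 35 tested genes of epithelial junctions and keratins, 7 were higher, where 4.83% of all genes were, and none lower (median log2 fold change 0.72). Without Wt2, 10 of 36 were higher (median 0.27). Krt19, a simple-epithelium keratin, rose by 2.35 (85.4, 156 and 133 CPM against 27.1, 12.5 and 21.3 CPM, adjusted p = 0.00219 by edgeR) and Cdh1, E-cadherin, by 1.39, the latter not called without Ho2 (adjusted p = 0.0542). Sox2 was higher too, as were 3 of 5 tested surface ectoderm genes (Trp63, Perp and Sfn), with none lower. Trp63 was at 26.3, 25.7 and 17.0 CPM against 5.99, 0 and 3.39 CPM. Without the filter on low counts, 3 of 18 surface ectoderm genes were higher and 1 lower (median -0.048). Wnt6 had 7, 1 and 2 UMIs against 207, 0 and 52 in the compared cells. The whole list of 20 genes summed to 158, 288 and 186 CPM against 160, 97.6 and 80.5 CPM. Of 11 tested cardiomyocyte genes none was higher and 1 (Tnni1) lower, and the list summed to 462, 794 and 662 CPM in the Pax8/Foxe1 cells and 436, 756 and 562 CPM in the compared cells. In the Wt libraries these sums were too close to order, since the TMM factors of the sets differ. Blood and macrophage genes, of which Hbb-y (13 UMIs in all Pax8/Foxe1 cells) was the most abundant and Csf1r and C1qa were at 0, summed to 4.92, 8.56 and 13.6 CPM against 14.8, 140 and 18.0 CPM. The endothelial list, led by Egfl7 with none at 0, summed to 81.1, 96.1 and 49.3 CPM against 156, 468 and 91.7 CPM. The part of these cell types in the results was not tested.

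The Pax8/Foxe1 cells were then split by Pax8. Double-positive cells were compared with the 156 cells that carried only one of the factors (148 with Foxe1, 8 with Pax8) within the same 3 libraries and the same test, on 6800 genes. The test called 817 genes higher in double-positive cells (12.0% of those tested) and 941 lower (13.8%), and leaving out the 8 Pax8-only cells gave 835 and 943. Without Wt1 the counts were 433 and 467. The values of the 3 libraries did not overlap in 20.3% of all genes tested (double-positive cells above) and in 19.8% (below).

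Of 10 tested genes of the thyroid factor list, Nkx2-1, Hhex, Bcl2 and Fgfr2 were higher in the double-positive cells and 4 were not called. Shh and Foxa2, which the pharyngeal and foregut endoderm list also holds, were lower, and the median log2 fold change of all 10 was 0.37. Over all genes 12.0% were higher and 13.8% lower. Nkx2-1 was at 136, 147 and 279 CPM in double-positive cells and at 23.7, 23.9 and 27.0 CPM in single-positive cells, a log2 fold change of 2.80 (SE 0.22, adjusted p = 8.95e-08 by edgeR). Hhex was at 248, 235 and 209 CPM against 39.0, 30.9 and 12.3 CPM (log2 fold change 3.00, SE 0.22), and Bcl2 at 279, 243 and 354 CPM against 41.7, 54.7 and 17.2 CPM (2.80, SE 0.24). The groups did not overlap for any of the 3 genes. Prlr rose by 3.50 on the log2 scale (147, 146 and 209 CPM against 18.1, 15.4 and 4.91 CPM), Duoxa2 by 3.48 and Tshr by 3.04, each with an adjusted p of at most 0.000141 by edgeR. Duoxa2 and Tshr passed the filter on low counts through the double-positive cells, where they were high. Of the 17 listed hormone synthesis genes, 14 were not tested in this split. Grem1 had 56 UMIs against 1, a ratio of 66.5 (counting interval 11.4 to 2671), and Corin, Ttc36 and the prostaglandin carrier Slco2a1 had 36 to 50 UMIs against 2 or 3.

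Another set of genes was nearly absent from the double-positive cells. Shh (chr5:28456815-28467256), the hedgehog ligand that is made by pharyngeal endoderm but kept out of the thyroid bud, had 0, 0 and 1 UMIs in them, against 67, 73 and 60 UMIs in the single-positive cells of the same libraries (adjusted p = 3.2e-08 by edgeR). Over all 3 libraries, single-positive cells had 169 times the Shh level of double-positive cells (counting interval 29.9 to 6690). Of the pharyngeal and foregut endoderm list, Shh and Foxa2, already counted with the thyroid factors, and Sox2 and Foxa1 were lower. Sox9 and Cxcl12 were higher among its 10 tested genes, and the lower ones passed the filter on low counts through the single-positive cells. Without the filter 10 of 29 were lower and 2 higher. Sox2, a foregut and oral progenitor factor, was at 4.13, 4.59 and 0 CPM against 110, 139 and 187 CPM (log2 fold change -5.27, SE 0.35, adjusted p = 2.93e-08 by edgeR). The pioneer factors Foxa1 and Foxa2 had 1 UMI each in double-positive cells and 74 and 55 in single-positive cells. Sox9 and the chemokine gene Cxcl12 rose by 2.95 and 2.03.

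Trp63, the p63 factor of stratified and surface epithelium, had 1 UMI in double-positive cells and 89 in single-positive cells, a ratio of 75.0 (counting interval 13.1 to 2995). Its target Perp fell by 3.02 on the log2 scale and the stratifin gene Sfn fell by 3.17. These surface ectoderm genes passed the filter on low counts through the single-positive cells, where they were high, and without the filter 5 of 16 such genes were lower and none higher. Krt5 and Wnt6 had no UMI in double-positive cells and 12 and 10 in single-positive cells. Krt14 had none in either group. The whole surface ectoderm list summed to 52.1, 65 and 52.3 CPM in double-positive cells and to 222, 536 and 295 CPM in single-positive cells. The keratins Krt8 and Krt18 had log2 fold changes of -1.21 and -1.10, and the claudin gene Cldn3 rose by 1.00 (204, 208 and 250 CPM against 114, 101 and 113 CPM), the 1 higher gene among 29 tested junction and keratin genes, of which 7 were lower. Sema3d, a secreted guidance factor, and Fxyd3, an ion pump regulator, had 0 and 1 UMIs in double-positive cells and 92 and 90 in single-positive cells, so that Sema3d was at least 25.8-fold lower.

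Single cells of both groups were described with 9 genes chosen after their values were seen to differ between the groups, so the shares are a description. Any of Nkx2-1, Hhex, Prlr and Duoxa2 was found in 178 of 184 double-positive cells (96.7%) and in 32 of 148 Foxe1-only cells (21.6%). Any of Shh, Sox2, Foxa1, Foxa2 and Trp63 was found in 8 (4.35%) and 116 (78.4%). Genes of both kinds were present together in 7 double-positive and 6 Foxe1-only cells, and in 129 of the 194 compared cells of Ho2 (66.5%). Among the 8 Pax8-only cells, 3 had a gene of the first kind and 4 had none of either.

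**Figure D3:**
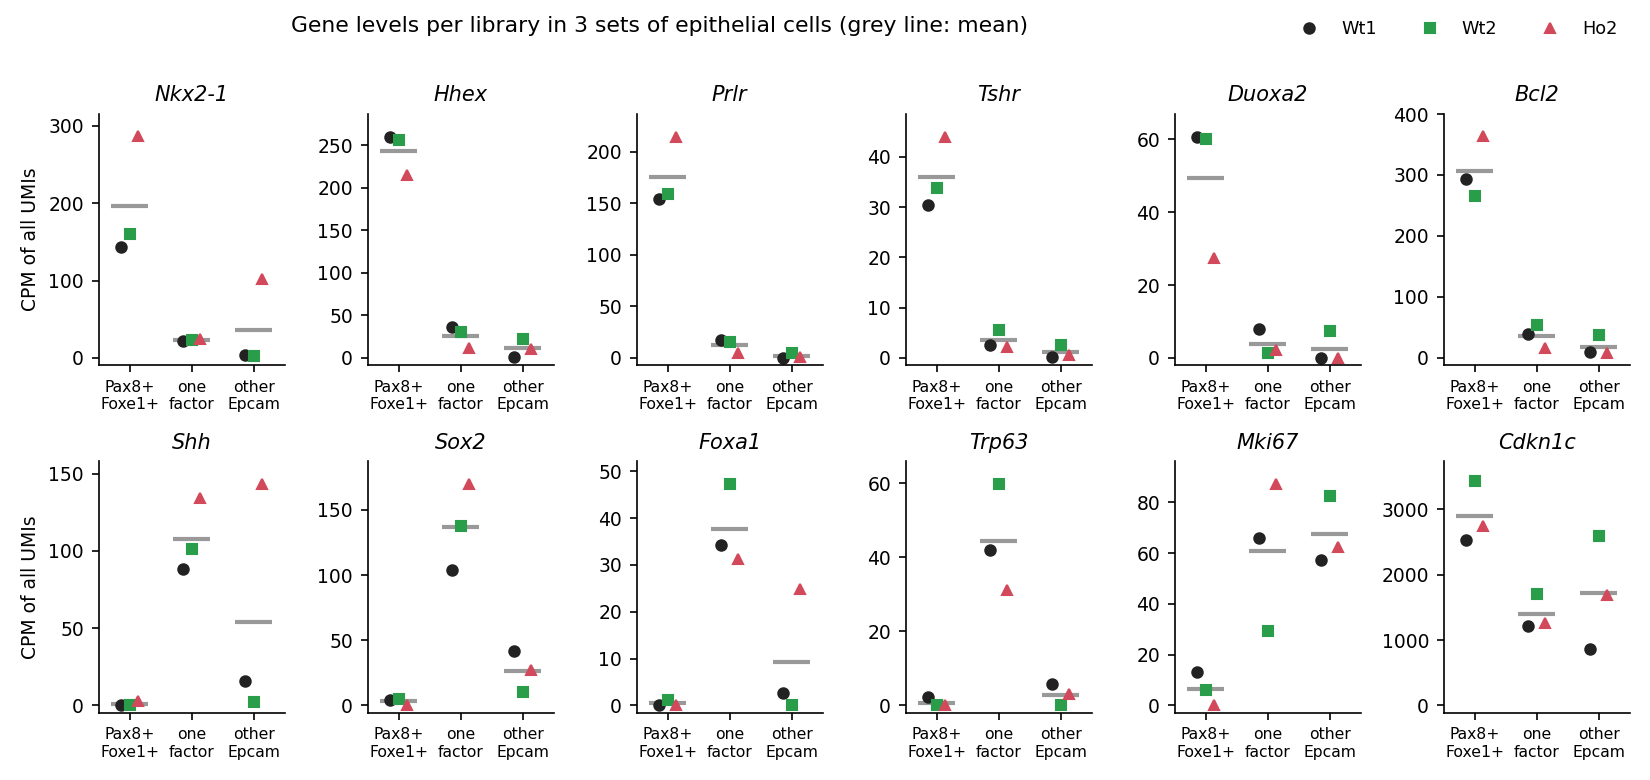
Counts per 1000000 of all UMIs (CPM) in the summed cells for 12 genes in 3 sets of cells: with Pax8 and Foxe1 (left), with one of them (middle) and other Epcam cells (right). Symbols are libraries and grey lines their mean; in the upper row the left set is high, in the lower row Shh, Sox2, Foxa1, Trp63 and Mki67 are near 0 in it, and Nkx2-1 and Shh are high in the right set in Ho2 alone.

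Genes of the dividing cell were low in the double-positive cells, whose median share of mitochondrial UMIs was higher than in single-positive cells of each library (1.76%, 1.88% and 2.25% against 1.11%, 1.23% and 1.30% in Wt1, Wt2 and Ho2). The part of this difference in the results was not tested. Of 38 tested genes of G2 and mitosis, 33 were lower than in single-positive cells and none higher, where 13.8% of all genes were lower. Their median log2 fold change was -2.00, against 0.02 over all genes. The other 14 of the 52 listed genes were not tested. Some tested genes, such as Mki67, Kif11 and Ncapd2, passed the filter on low counts through the single-positive cells, where they were high. Of 36 tested S-phase genes, 22 were lower (median -0.87). Mki67, a marker of cycling cells, was at 12.4, 5.74 and 0 CPM against 69.6, 29.5 and 95.8 CPM (log2 fold change -3.07, SE 0.45, adjusted p = 6.84e-05 by edgeR). It was detected in 3.80% of double-positive and 28.4% of Foxe1-only cells, or 1.63% and 9.46% after thinning, with 35.9% and 7.84% in cardiomyocytes. Cdk1 and Top2a had log2 fold changes of -2.60 and -2.31, and Ccnb1, the mitotic cyclin B1, had 12 UMIs against 115. With DESeq2, 21 of the 38 genes were lower, and with thinned cells 8 of 12.

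Of 13 tested cyclins, kinases, inhibitors and Myc genes, 7 were lower, where 13.8% of all genes were, 1 was higher and 5 were not called. Ccnb1, Mycn and Mycl passed the filter on low counts through the single-positive cells, where they were high. Ccnd2, cyclin D2, was at 114, 78.1 and 72.5 CPM against 260, 257 and 315 CPM (log2 fold change -1.63, adjusted p = 3.38e-06 by edgeR), and the Myc family genes Mycn and Mycl had log2 fold changes of -2.75 and -2.48. The higher gene was Cdkn1c, the p57 inhibitor of cyclin-dependent kinases, at 2409, 3145 and 2682 CPM against 1278, 1723 and 1388 CPM (log2 fold change 0.91, SE 0.09, adjusted p = 1.22e-06 by edgeR). Cdkn2b and Cdkn2a, neighbouring inhibitor genes on chromosome 4, went the other way: neither had a UMI in double-positive cells, against 134 and 41 in single-positive cells, which puts them at least 37.6-fold and 11.5-fold lower. In the comparison of all Pax8/Foxe1 cells with other epithelium, where 5.17% of all genes were lower, 27 of 51 G2 and mitosis genes were lower. None was higher (median -1.28, or -0.75 without Wt2), and with compared cells of at least 5 Epcam UMIs 13 were lower.

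**Figure D4:**
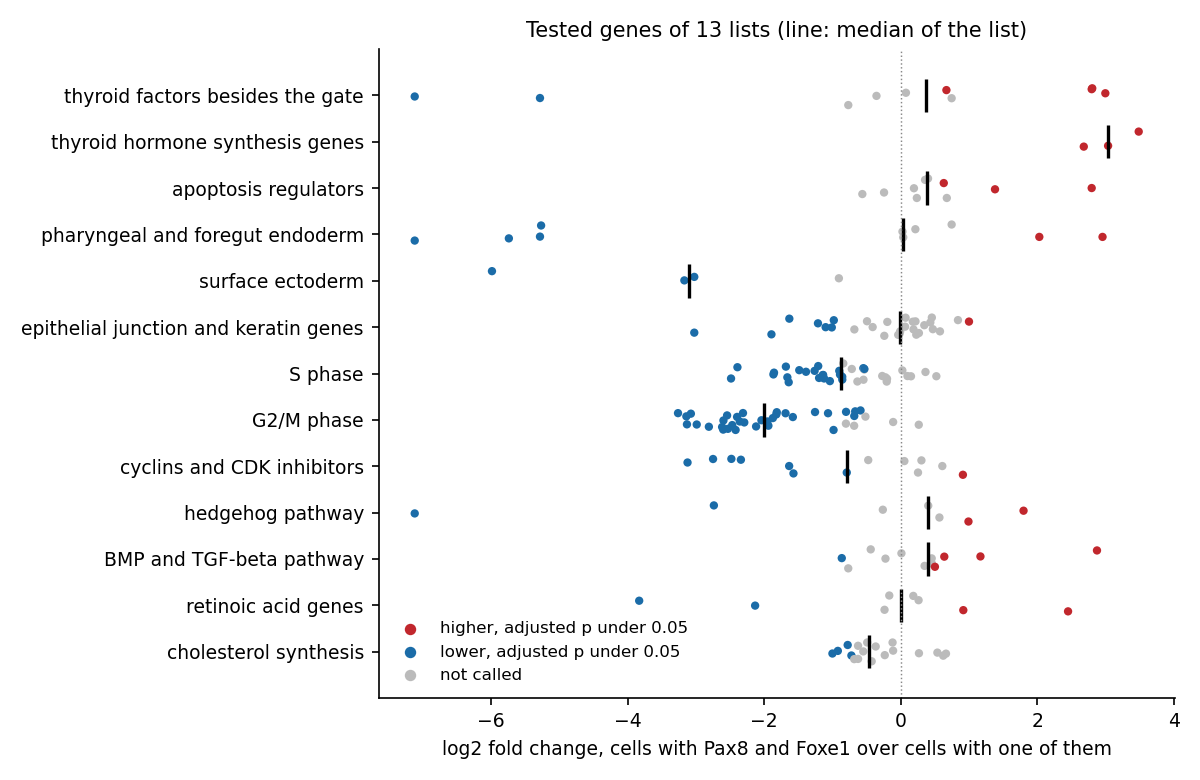
Log2 fold change of every tested gene of 13 lists, double-positive cells over cells with one of the factors (horizontal), with called genes in colour and a line at the median of each list. The 33 called genes of G2 and mitosis all lie to the left of 0, the 3 of hormone synthesis to the right, and the thyroid factor list splits because it holds Shh and Foxa2.

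Counts of signalling genes, here and in the next paragraph, are to be read against all genes, of which 12.0% were higher and 13.8% lower. Among 4 tested Notch genes, 1 was lower (Hes6) and none higher. In the hedgehog pathway, Ptch1, the receptor whose transcription rises when the pathway is active, was at 114, 171 and 180 CPM in double-positive cells against 83.5, 68.8 and 78.6 CPM (log2 fold change 0.99, SE 0.19, adjusted p = 0.000969 by edgeR). Gli3, a transcription factor that acts mainly as a repressor, fell by 2.74 (5 UMIs against 37, adjusted p = 0.0771 by DESeq2). Boc, a coreceptor, was the other higher gene and Shh the other lower gene among 7 tested. Ptch1 was also higher in all Pax8/Foxe1 cells than in other epithelium, by 1.21 (91.7, 118 and 120 CPM against 45.3, 45.0 and 48.1 CPM, adjusted p = 0.00357 by edgeR).

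Of 12 tested BMP and TGF-beta genes, 4 were higher (Id3, Id4, Smad7 and Fst) and Bmp4 was lower, with a log2 fold change of -0.86 and no call by DESeq2. Fst, follistatin, which binds activin, had 54 UMIs against 8, a call that DESeq2 did not make (adjusted p = 0.121). Among the retinoic acid genes Aldh1a3, a retinoic acid synthesizing enzyme, was at 94.9, 130 and 121 CPM against 39.0, 15.4 and 2.46 CPM (log2 fold change 2.45, SE 0.35), and Rdh10 was higher too. Rarb and Crabp2, a receptor and a binding protein, had log2 fold changes of -3.83 and -2.13, and Crabp2 was at 157, 168 and 121 CPM against 838, 575 and 595 CPM. Thus synthesis genes were higher and the receptor and binding protein lower, with 2 called in each direction of 8 tested.

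Cholesterol synthesis, the pathway of the mutated enzyme, was examined in the same cells. Against other epithelium, 6 of 26 tested genes were lower and none higher, with a median log2 fold change of -0.55. Over all genes tested 5.17% were lower. DESeq2 called 2 of the 26 lower, and with thinned cells 1 of 9 was lower. Fdps, which makes farnesyl diphosphate, was at 195, 138 and 248 CPM against 352, 212 and 471 CPM (log2 fold change -0.81, SE 0.11, adjusted p = 0.00437 by edgeR). Cyp51 was at 61.4, 49.0 and 67.8 CPM against 85.1, 85.0 and 82.3 CPM and was not called (log2 fold change -0.49, adjusted p = 0.103). With the double-positive cells alone against other epithelium, Cyp51 was called lower (log2 fold change -0.77, adjusted p = 0.0245 by edgeR). Without Wt1, 3 genes were lower, without Wt2 it was 8 of 28, and without Ho2 it was 1. Between double-positive and single-positive cells 4 of 18 genes were lower (median -0.46), near the 13.8% of all genes, and without Wt1 or Ho2 it was 1 gene.

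Genotypes could be set side by side only as values, since Ho2 was the only mutant library with these cells. In double-positive cells Cyp51 was at 41.2 CPM of all UMIs in Wt1 (exact Poisson 95% interval 24.8 to 64.4), 61.3 in Wt2 (45.3 to 81.0) and 60.6 in Ho2 (38.0 to 91.7). The cholesterol list summed to 799, 931 and 900 CPM and Ptch1 was at 119, 186 and 184 CPM in the same order, so that Ho2 lay within the range of the Wt libraries for each in these cells. In the other sets the cholesterol list was highest in Ho2. It summed to 1381 CPM in the single-positive cells of Ho2 (interval 1274 to 1494) against 1133 in Wt1 and 856 in Wt2, to 1166 in all Pax8/Foxe1 cells (1092 to 1242) against 1007 and 896, and to 1758 in the compared cells against 1376 and 1023. Cyp51 in all Pax8/Foxe1 cells was at 63.1, 54.0 and 69.1 CPM, with overlapping intervals. In double-positive cells Nkx2-1 was at 143 CPM (111 to 182) in Wt1, 160 (134 to 190) in Wt2 and 286 (234 to 347) in Ho2, where the interval lay above both others. With 1 mutant library this difference has no replicate check. The double-positive share of the Pax8/Foxe1 cells was 47.2%, 58.8% and 56.5%.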

How the data were processed

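Single-cell 3' RNA libraries (10x Genomics v3.1) of E10.5 hearts, 2 Wt and 2 Ho, were analysed. The authors aligned reads with Cell Ranger 6.1.1 to mm10 (GRCm38), per the labels, and deposited raw UMI counts for 33589 barcodes of 32285 genes. Seurat 4.1.0 is also named in the submitters' processing notes. How reads of overlapping genes were split is not given in the sources used here.

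Barcodes with 500 to 6000 genes, 2000 to 50000 UMIs and at most 20% mitochondrial UMIs were kept. Doublets were called with Scrublet in scanpy 1.11.5 (827 cells) and not removed in the main analysis. Counts were summed per library and cell set and tested with edgeR 4.0.16 in R 4.3.3 (quasi-likelihood test, TMM, filterByExpr, library as a block, Benjamini-Hochberg adjustment). The library pairs the 2 sets because both sets were sequenced in it. The study's likelihood ratio test takes cells as replicates and was not used. CPM are counts per 1000000 UMIs. Gene values of the comparisons carry the TMM factors, while list sums and values set side by side by genotype do not. For a gene at 0, 3 counts over the set served as floor. Shares have exact binomial and levels exact Poisson 95% intervals.

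The genes named were the 15 highest and 10 lowest (5 and 5 in the split by Pax8) by log2 fold change among called genes that moved alike in every library, and genes of 23 lists; some of these genes are not reported here. The cells and lists were chosen with earlier results of these data known. Positions are of GENCODE M21, which holds 99.8% of the gene identifiers.

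On simulated data with 200 changed genes, edgeR recovered 103 at a log2 fold change of 1 and 194 at 2 in the first comparison (8958 and 8961 genes) and 119 and 196 in the second (6478 and 6465 genes). Alternatives were DESeq2 1.42.0, RLE normalization, no filter, thinning to 2000 UMIs, other limits on cells, no block and leaving out each library. The test of Ho against Wt needed 2 libraries a genotype with at least 5 such cells each, and was not run.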

Additional observations from a re-analysis of the deposited data

Results flagged for a closer look

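Shh moved in opposite directions in the genotypes. As a log2 difference between Pax8/Foxe1 cells and other epithelium within a library, it was 1.67 in Wt1, 3.86 in Wt2 and -1.07 in Ho2. The level in the Pax8/Foxe1 cells was 53.4, 43.7 and 73.9 CPM, and that in the compared cells 16.4, 2.5 and 156 CPM, so the sign followed the compared cells. The difference between the genotypes was not tested, since 1 Ho library entered.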

How the results depend on the processing

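The share of Pax8/Foxe1 cells was lower in Ho than in Wt under every alternative run. The difference was -0.721 points with double-positive cells only and -27.2 points as a share of Epcam cells, where Wt2 (54.3%) stood apart from Wt1 (16.4%) and Ho2 (16.3%), and for the share of all cells it was -1.87 to -0.834 points with a library left out. Counts of called genes depended on the setting, here as higher and lower. Against other epithelium (446 and 478), they were 738 and 859 without the filter on low counts, 217 and 226 by DESeq2, 200 and 166 with thinned cells, 978 and 1019 with double-positive cells only, and 247 and 301 with compared cells of at least 5 Epcam UMIs, an alternative added after seeing the data. With a library left out they were 241 to 472 and 259 to 591, lowest without Ho2, and without Wt1 they were 342 and 310. With no replicate block they were 356 and 161, of which 342 and 156 were among those called with it. For double-positive against single-positive cells (817 and 941), they were 270 and 382 by DESeq2 and 164 and 187 with thinned cells, where 2134 genes were tested, and with a library left out 433 to 835 and 467 to 960, lowest without Wt1. No replicate block gave 787 and 871. Of 1187 values under alternatives of 104 fold changes of named genes, 1128 kept direction and call, 49 lost the call, 6 gained it and 4 changed sign: Shh in the first comparison (main 0.52, -0.072 to 2.02 with a library left out and lowest without Wt1, -0.059 with at least 5 Epcam UMIs, -0.28 with no replicate block) and Bad in the second (-0.19 with thinned cells). The cause of these changes was not tested. For the gene test of Ho against Wt, no paired analysis was possible because Ho1 held none of these cells, which leaves 1 replicate number shared, and that test and its alternatives were not run. The share was not tested by pairs, since nothing says that the replicate numbers mark a shared litter or day.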

Other observations

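Wnt pathway genes were called in both directions in the split of the Pax8/Foxe1 cells, where 12.0% of all genes were higher and 13.8% lower. Of 11 tested, 4 were higher in double-positive cells (Wnt11, Fzd1, Fzd2 and Nkd1) and 3 lower (Fzd8, Sfrp1 and Lgr4). Fzd1, a Wnt receptor, was at 57.8, 54.0 and 64.4 CPM against 12.5, 18.2 and 0 CPM in Wt1, Wt2 and Ho2 (log2 fold change 2.28, SE 0.41, adjusted p = 0.000465 by edgeR). Lgr4, an R-spondin receptor, was at 4.13, 17.2 and 10.7 CPM against 32.0, 64.5 and 24.6 CPM, and Sfrp1, a secreted Wnt antagonist, at 12.4, 23.0 and 5.37 CPM against 39.0, 65.9 and 81.1 CPM. DESeq2 did not call Nkd1, Fzd2 and Lgr4 (adjusted p = 0.144, 0.119 and 0.0543). In the other lists of this comparison, to be read against the 12.0% of all genes called higher, 3 of 10 apoptosis regulators were higher (Bcl2, Bad and Bbc3, of which Bad and Bbc3 were not called by DESeq2), 2 of 5 FGF genes (Fgf1 and Fgfr2), 1 of 2 neural genes (Tubb3) and 2 of 10 cardiomyocyte genes (Myl7 and Ttn). The cardiomyocyte list summed to 484, 964 and 950 CPM in double-positive cells and 449, 606 and 429 CPM in single-positive cells, with Myl7 the most abundant, and its part in the other results was not tested.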
